A study of Homo sapiens with 6 samples.

Results

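Interferon-stimulated genes were followed in KY170R, a radioresistant human esophageal squamous cancer line, and in KY170, the parental line it was derived from. The list held 41 genes known to be induced by interferon, taken by symbol with older aliases traced through the Entrez identifier, and each gene was represented by its brightest probe over all arrays. Of the 41, 39 had an annotated probe on the array (56 probes in all, several for 12 genes), among 18665 named genes of the series, and STAT2 and HERC6 matched none. KY170R was obtained by continuous fractionated irradiation of KY170 and is described as a clone. For KY170R and then for KY170, RNA was profiled 0, 8 and 24 h after exposure to 6MV X-rays from a linear accelerator on Illumina Human-6 V3 bead arrays, with 1 array for each line and time point. The radiation dose behind these times and whether a column pools repeats of the profiling are not given in the sources used here. These arrays are described as 0 h after exposure, while RT-PCR on the same lines is described as starting with cells taken ahead of it and used 0 h as its baseline, so the 0 h cells may have been unirradiated. With 1 array in each of the 6 groups, the lines were compared over the 3 time points and the time points over the 2 lines, and the p-values measure only the spread between these arrays. The second pair of lines in the study was not analysed here.

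Interferons are secreted proteins that warn neighboring cells of infection or damage. Type I and type III interferons bind receptors linked to the kinases JAK1 and TYK2, which lead to the assembly of ISGF3, a complex containing STAT2 and IRF9 that binds the interferon-stimulated response element (ISRE) in the promoters of its target genes. Interferon gamma acts mainly through another promoter sequence, the gamma-activated site (GAS). The products of the induced genes sense foreign RNA, degrade or block it, trap virus at membranes, or feed back on the pathway, and a set of them is known to be induced in irradiated tumor cells and to be kept at a raised level in some radioresistant ones.

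The ISRE was looked for in the promoters of the members, since it is the sequence that many of these genes share. RefSeq promoter windows (GRCh38.p14), which run from 250 bases before to 50 bases after the gene start, were found for 31 of the 41 members. The ISRE core, written GAAANNGAA and read on both strands with overlapping matches counted, was present in 21 of these 31 windows (67.7%), against 2847 of all 35116 windows (8.11%). The GAS core, TTCNNNGAA, which reads the same on both strands, was present in 9 of 31 (29.0%), against 2689 of 35116 (7.66%). These are matches of letters and not measured binding sites. The 160 bases before the gene start are shown for 4 of the genes that were higher in KY170R (RIGI, DDX60, HERC5 and IFI44), for 2 IFIT genes that were higher at 24 h, and for 2 genes that were lower at 24 h (ISG15 and IFITM3). Each runs 5′ to 3′ on the strand of the gene, with the ISRE core or its reverse TTCNNTTTC in capitals.
RIGI (chr9:32526197-32526356, minus strand): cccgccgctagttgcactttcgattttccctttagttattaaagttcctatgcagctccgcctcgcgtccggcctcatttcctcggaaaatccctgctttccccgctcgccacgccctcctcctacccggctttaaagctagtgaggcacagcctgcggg
DDX60 (chr4:168318753-168318912, minus strand): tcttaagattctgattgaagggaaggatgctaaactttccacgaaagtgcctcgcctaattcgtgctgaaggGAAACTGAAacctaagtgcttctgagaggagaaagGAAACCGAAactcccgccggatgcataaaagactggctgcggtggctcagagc
HERC5 (chr4:88456959-88457118, plus strand): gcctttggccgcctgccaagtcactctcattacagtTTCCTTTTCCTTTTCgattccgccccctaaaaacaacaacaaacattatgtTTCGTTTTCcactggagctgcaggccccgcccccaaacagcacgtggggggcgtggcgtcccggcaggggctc
IFI44 (chr1:78649629-78649788, plus strand): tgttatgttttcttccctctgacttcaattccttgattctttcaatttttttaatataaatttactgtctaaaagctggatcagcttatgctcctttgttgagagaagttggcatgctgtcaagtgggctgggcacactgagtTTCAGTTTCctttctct
IFIT1 (chr10:89392463-89392622, plus strand): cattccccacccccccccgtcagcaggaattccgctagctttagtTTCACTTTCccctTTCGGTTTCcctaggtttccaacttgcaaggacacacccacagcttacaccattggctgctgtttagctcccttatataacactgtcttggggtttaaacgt
IFIT3 (chr10:89327837-89327996, plus strand): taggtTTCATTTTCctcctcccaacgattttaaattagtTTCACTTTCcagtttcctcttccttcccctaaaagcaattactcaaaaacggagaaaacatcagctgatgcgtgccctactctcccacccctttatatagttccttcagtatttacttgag
ISG15 (chr1:1013337-1013496, plus strand): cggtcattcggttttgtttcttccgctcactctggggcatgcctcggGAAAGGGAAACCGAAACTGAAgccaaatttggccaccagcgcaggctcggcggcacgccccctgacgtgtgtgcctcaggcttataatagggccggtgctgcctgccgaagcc
IFITM3 (chr11:320861-321020, minus strand): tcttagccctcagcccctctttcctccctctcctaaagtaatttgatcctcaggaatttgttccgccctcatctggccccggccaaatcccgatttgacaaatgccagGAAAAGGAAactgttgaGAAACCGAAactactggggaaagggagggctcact
HERC5 held 3 such matches, the pair farther from the gene start overlapping, and ISG15 held 3 that overlapped one another in a single stretch. The RIGI window held none, and neither did the windows of IRF9 and IFI35, although IRF9 and IFI35 each held 1 match of the GAS core. Windows with the ISRE core were found for 3 of the 6 genes higher in KY170R that had a window. They were found for 8 of 10 higher at 24 h and for 4 of 5 lower at 24 h. The ISRE core was thus found among genes that moved in either direction over time. In the same order, the GAS core was found for 3 of 6, 1 of 10 and 2 of 5.

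The deposited intensities had been background-subtracted and normalized between arrays, and the share of negative values was 29.9% to 29.93% on the 6 arrays. The 99th percentile of the size of these negative values, 13.7, served as the background limit. Most markers of the labeled cell type were present: of 12 squamous epithelial markers, 9 had a probe and 8 of them were above the limit on every array, with summed intensities of 23311 to 32458 in KY170R and 30780 to 33966 in KY170. Single markers differed between the lines in both directions, with KRT14, DSG3 and LAMB3 called higher in KY170R and KRT13 and KRT5 called lower, the widest being KRT14 (10.8-fold higher; limma, adjusted p = 0.00258) and KRT13 (9.04-fold lower; adjusted p = 4.96e-05). Of 10 immune cell markers 9 had a probe, and their summed intensities were 89.6 to 137 in KY170R and 93.3 to 140 in KY170, with 1 of the 9 above the limit on every array. PTPRC, CD3D, CD3E, HLA-DRA and NKG7 were at or under the limit on all 6 arrays. CD14 was the 1 above it on every array, at 27.3 to 62.3, and CD79A, MS4A1 and LYZ were above it on some. Of 6 fibroblast markers 4 were at or under it on all arrays, with sums of 34.7 to 113 in KY170R and 55.2 to 84.8 in KY170, and the 4 endothelial markers summed to 29.8 to 102 in KY170R and 56.9 to 228 in KY170. The endothelial marker CDH5 was called lower in KY170R, at 21.6, -1.36 and 3.65, against 127, 26.4 and 29.5 in KY170 (limma, adjusted p = 0.0160). PECAM1, the 1 endothelial marker above the limit on every array (18.1 to 76.0), was not called (log2 difference 0.17 ± 0.34, limma adjusted p = 0.896). The part of these marker differences in the results below was not tested. Fewer cells that express a gene and less RNA per cell cannot be told apart in such bulk RNA.

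Most of the interferon-stimulated genes were readily measured in both lines. Of the 39, 29 were above the limit on all 6 arrays, 6 on some of them (IFI44L, MX2, OAS2, IRF7, BST2 and TRIM22), and 4 on none (RSAD2, XAF1, CMPK2 and EPSTI1). Intensities were raised to a floor of 1 and turned into log2, and probes in the upper 50% by mean log2 were tested with limma, which kept 34 of the 39 and left out CMPK2, EPSTI1, MX2, RSAD2 and XAF1. The heat map of levels is to be read along each gene, since the brightness of different probes also depends on their sequences.

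**Figure D1:**
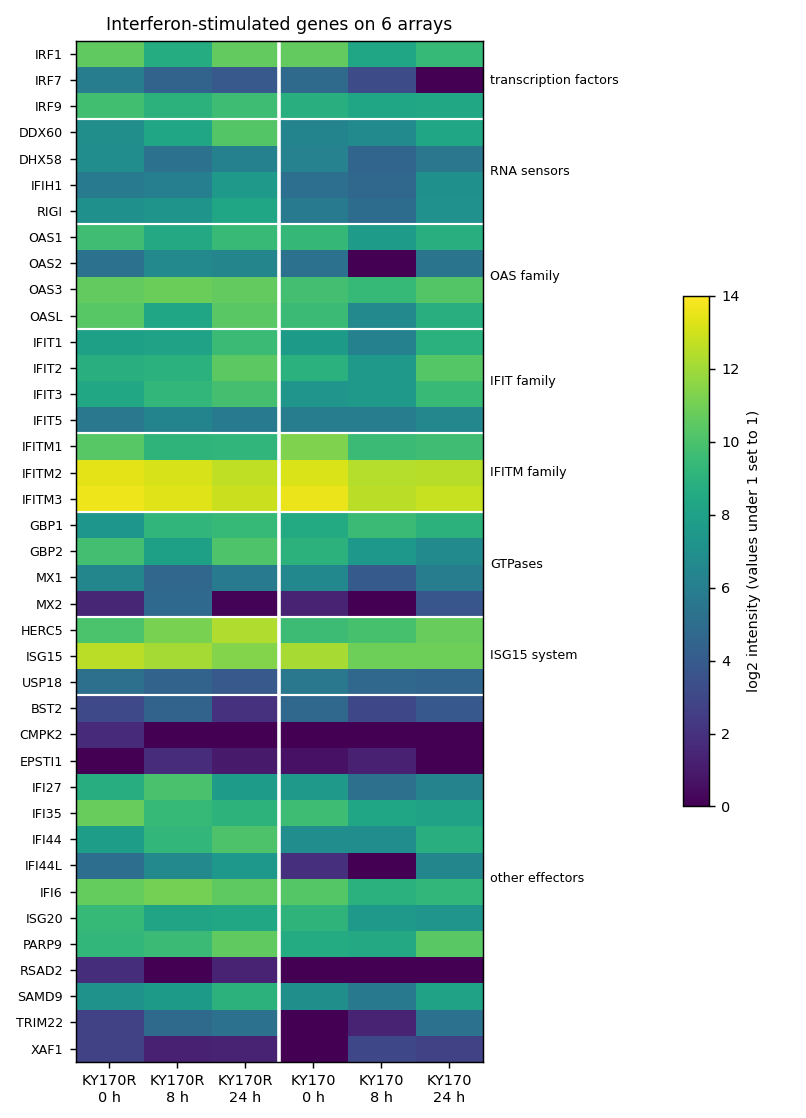
Log2 intensity (color, values under 1 set to 1) of the 39 interferon-stimulated genes with a probe, grouped by role, on the 3 KY170R arrays (left) and the 3 KY170 arrays (right) at 0, 8 and 24 h. DDX60 and HERC5 brighten at each time step in both lines, while RSAD2, CMPK2, EPSTI1 and XAF1 stay at background.

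Most of the interferon-stimulated genes were higher in KY170R than in KY170. Averaged over the 3 time points, 29 of the 34 tested members lay above 0 on the log2 scale, with a median log2 difference of 0.93 (range -0.68 to 3.59), against a median of -0.01 over the 12481 genes tested. KY170R was above KY170 at all 3 time points for 26 of the 34 (76.5%), against 19.0% of all genes tested, and below it at all 3 for 2 (IFITM1 and USP18, 5.88%), against 19.6% of all genes. The 26 include TRIM22, with its 0 h values in both lines under the background limit. They also include IFI44L, IRF7 and OAS2, which had values under that limit in KY170. In the limma fit with time point as a factor and Benjamini-Hochberg adjustment over 24401 probes, 7 of the 34 members (20.6%) were called higher in KY170R at an adjusted p under 0.05, against 1.48% of all genes. They were RIGI, DDX60, IRF9, OASL, HERC5, IFI35 and IFI44. No member was called lower, against 1.13% of all genes, and 24 of the 34 had an unadjusted p under 0.05 in either direction, against 3308 of the 24401 probes (13.6%). The calls depended on the 8 h arrays. With those left out, the log2 differences of the 7 genes were 1.01 to 1.34 and none was called (limma, adjusted p = 0.0666 to 0.196), with 15 of the 34 members and 2331 of all probes (9.55%) at an unadjusted p under 0.05. None was called under a single prior variance for all probes (limma, adjusted p = 0.409 to 0.477). With the floor at the background limit none was called either (limma, adjusted p = 0.0678 to 0.152). Neither setting alters the log2 differences of the 7 genes, so their sign there adds no support.

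Among the RNA sensors, 2 of 4 were called higher in KY170R. RIGI (formerly DDX58; chromosome 9, probe ILMN_1797001) encodes RIG-I, the helicase that recognizes short double-stranded RNA with a 5′ triphosphate end. Its intensities were 129, 153 and 313 in KY170R and 54.8, 31.0 and 137 in KY170 (0, 8 and 24 h). KY170R was the higher at each time point, and the ranges of the lines overlapped only through the 24 h array of KY170. The log2 difference was 1.58 ± 0.30 (SE, 3 time points), a 2.99-fold difference (limma, adjusted p = 0.0273). DDX60 (chromosome 4, probe ILMN_1795181), a helicase-like protein that is thought to assist RIG-I, read 123, 312 and 1219 in KY170R against 78.8, 98.7 and 295 in KY170. Both lines climbed with time, and the log2 difference was 1.45 ± 0.29 (SE; 2.73-fold; limma, adjusted p = 0.0303). IFIH1, which encodes MDA5, the sensor of long double-stranded RNA, read 52.3, 65.0 and 191 in KY170R against 34.2, 25.1 and 132 in KY170. It was higher in KY170R at every time point but was not called (log2 difference 0.84 ± 0.31, limma adjusted p = 0.256). DHX58, encoding LGP2, a regulator of the other sensors, differed by 0.65 ± 0.31 on the log2 scale (limma, adjusted p = 0.392), with ratios that were nearly the same at the 3 time points (log2 differences of 0.62 to 0.70).

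Of the transcription factors, IRF9 (chromosome 14, probe ILMN_1745471), the DNA-binding part of ISGF3, was called. Its intensities were 855, 517 and 799 in KY170R and 459, 302 and 323 in KY170. The lines did not overlap, every KY170R array lying above every KY170 array. The log2 difference was 0.99 ± 0.20 (SE), a 1.99-fold difference (limma, adjusted p = 0.0341). IRF9 was also the 1 gene of the 7 that lost its call without the 0 h arrays (adjusted p = 0.0674). IRF1, a factor induced by interferon gamma and by stress, read 1516, 409.5 and 1592 in KY170R against 1598, 315 and 675 in KY170. The lines were close at 0 h and apart at 24 h, and the log2 difference of 0.51 ± 0.24 was not called (limma, adjusted p = 0.394). IRF7, the factor that amplifies type I interferon production, was dim, at 57.9, 22.3 and 15.2 in KY170R and 28.2, 9.14 and 0.449 in KY170. Only the 0 h array of KY170 was above the background limit in that line, and the log2 difference of 2.08 ± 0.67 rests on the floor at 24 h and was not called (limma, adjusted p = 0.177).

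The OAS family makes a second messenger from ATP when it meets double-stranded RNA, which leads to the breakdown of RNA in the cell. OASL (chromosome 12, probe ILMN_1674811), a relative without that activity that is known to enhance RIG-I signaling, had the smallest adjusted p of all members. It read 1305, 302 and 1387 in KY170R against 753, 97.6 and 436 in KY170, so that both lines dipped at 8 h and KY170R was higher each time. The log2 difference was 1.36 ± 0.22 (SE; 2.57-fold; limma, adjusted p = 0.0124), and a second OASL probe gave 1.43. OAS3 read 1571, 1849 and 1599 in KY170R against 888, 673 and 1212 in KY170. Its lines did not overlap, yet the log2 difference of 0.89 ± 0.21 missed the threshold (limma, adjusted p = 0.0639). OAS1 read 843, 350.0 and 705 in KY170R against 633, 211 and 442 in KY170. Its log2 difference was 0.60 ± 0.19 (limma, adjusted p = 0.172), and 2 further OAS1 probes gave 0.58 and 0.81. OAS2 read 39.5, 97.1 and 83.5 in KY170R against 37.9, -0.246 and 42.3 in KY170. It was level between the lines at 0 h and at background in KY170 at 8 h, which sets most of its log2 difference of 2.55 ± 1.43 (limma, adjusted p = 0.569).

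IFIT proteins bind viral RNA that lacks the cap marks of the host, and none of the 4 was called between the lines. IFIT1 read 251, 265 and 760.0 in KY170R against 200.3, 69.9 and 484 in KY170, a log2 difference of 0.97 ± 0.30 (SE; limma, adjusted p = 0.158). IFIT3, which stabilizes IFIT1, read 341, 614 and 933 in KY170R against 158, 188 and 726 in KY170, a log2 difference of 1.06 ± 0.26 (limma, adjusted p = 0.0711). Both were higher in KY170R at each time point, most clearly at 8 h. IFIT2 read 458, 491 and 1417 in KY170R against 499.7, 190.1 and 1276 in KY170, and IFIT5 read 49.1, 80.6 and 55.6 in KY170R against 59.5, 61.1 and 91.0 in KY170. For these the sign depended on the time point, with log2 differences of 0.46 ± 0.27 and -0.20 ± 0.32 (limma, adjusted p = 0.522 and 0.868).

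The IFITM proteins, which sit in cell and endosome membranes and hinder virus entry, are close in sequence, so which of their RNAs each probe read is uncertain, and none was called between the lines. IFITM3 read 12713, 10023 and 7521 in KY170R against 12347, 5957 and 7148 in KY170, a log2 difference of 0.29 ± 0.15 (SE; limma, adjusted p = 0.464). IFITM2 read 10812, 9218 and 6518 in KY170R against 9463, 5544 and 5863 in KY170, a log2 difference of 0.36 ± 0.14 (limma, adjusted p = 0.287). In both the lines were within a small margin at 0 and 24 h and apart at 8 h. IFITM1 ran the other way, at 1318, 546 and 587 in KY170R against 2467, 759.8 and 829 in KY170. KY170R was the lower at all 3 time points, with a log2 difference of -0.63 ± 0.18 (limma, adjusted p = 0.128).

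Of the interferon-induced GTPases, which assemble around virus particles or microbial compartments, none was called between the lines. GBP2 read 916, 246 and 1112 in KY170R against 516, 174 and 105 in KY170. The gap was far wider at 24 h than before, and the log2 difference was 1.58 ± 0.58 (SE; limma, adjusted p = 0.321). GBP1 read 162, 591 and 664 in KY170R against 371, 755 and 509 in KY170, a log2 difference of -0.39 ± 0.27 (limma, adjusted p = 0.619). MX1 read 86.6, 24.6 and 53.1 in KY170R against 91.8, 15.4 and 58.0 in KY170, a log2 difference of 0.15 ± 0.34 (limma, adjusted p = 0.908). GBP1 was lower in KY170R at 0 and 8 h and higher at 24 h, while MX1 was higher in KY170R at 8 h alone. MX2 was above the limit on 1 array, the 8 h array of KY170R, at 27.6.

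ISG15 is a ubiquitin-like protein that is secreted or attached to other proteins, HERC5 is the main ligase that attaches it in human cells, and USP18 removes it and restrains the receptor. HERC5 (chromosome 4, probe ILMN_1729749) read 1044, 2298 and 5215 in KY170R against 784, 972 and 1711 in KY170. It climbed at each step in both lines and was higher in KY170R throughout, by 1.09 ± 0.22 on the log2 scale (SE; 2.13-fold; limma, adjusted p = 0.0341). ISG15 itself read 5992, 4424 and 2729 in KY170R against 4611, 1932 and 1960 in KY170. It was higher in KY170R at each time point while dropping with time, and its log2 difference of 0.68 ± 0.18 was not called (limma, adjusted p = 0.0912). USP18 read 35.6, 22.0 and 14.9 in KY170R against 49.5, 26.8 and 23.4 in KY170. It was the lower in KY170R each time, close to background, with a log2 difference of -0.47 ± 0.38 (limma, adjusted p = 0.681).

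Among the other effectors, IFI35 and IFI44 were called. IFI35 (chromosome 17, probe ILMN_1745374), a protein that binds the partner NMI and acts in innate signaling, read 1735, 663 and 536 in KY170R against 801, 299.7 and 271 in KY170. The ratio was steady while both lines declined, so that the log2 difference was 1.11, 1.15 and 0.99 at 0, 8 and 24 h, with a mean of 1.08 ± 0.18 (SE; 2.12-fold; limma, adjusted p = 0.0150). IFI44 (chromosome 1, probe ILMN_1760062), a cytoplasmic protein induced strongly by type I interferon, read 225, 608 and 1073 in KY170R against 117.5, 115 and 458 in KY170. KY170R had climbed by 8 h and KY170 had not, and the log2 difference was 1.52 ± 0.28 (SE; 2.87-fold; limma, adjusted p = 0.0232).

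The largest differences of all belonged to genes that were dim or moved mainly at 1 time point. IFI44L, the neighbor and relative of IFI44, read 33.1, 97.9 and 175 in KY170R against 3.83, -0.742 and 84.9 in KY170. By this probe it was above background in KY170 only at 24 h, and the log2 difference of 3.59 ± 0.96 was not called (SE; limma, adjusted p = 0.157). A second, dimmer IFI44L probe gave 0.43 and in KY170 was above background only at 0 h, at 21.8. IFI27, an interferon-induced mitochondrial protein, read 422, 1021 and 212 in KY170R against 189, 36.3 and 76.9 in KY170. The lines did not overlap and moved in opposite directions at 8 h, with a log2 difference of 2.48 ± 0.80 (limma, adjusted p = 0.298). TRIM22, an antiviral ubiquitin ligase, read 6.61, 28.2 and 39.2 in KY170R against -0.522, 2.57 and 39.0 in KY170, level at 24 h, and before that above the limit only at 8 h in KY170R (log2 difference 2.06 ± 0.80, limma adjusted p = 0.273).

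The remaining effectors were spread around these. BST2, or tetherin, which holds budding virus on the cell surface, read 8.49, 22.4 and 4.04 in KY170R against 26.1, 8.22 and 14.7 in KY170, mostly within the noise around background (log2 difference -0.68 ± 0.74, limma adjusted p = 0.781). ISG20, an exonuclease of RNA, read 668, 289 and 324 in KY170R against 553, 182 and 159 in KY170, a log2 difference of 0.65 ± 0.22 (SE; limma, adjusted p = 0.207). IFI6, an inhibitor of apoptosis, was higher in KY170R by 1.24 ± 0.28 on the log2 scale, with no overlap of the lines, and missed the threshold (limma, adjusted p = 0.0658). SAMD9 and PARP9 differed by 1.03 ± 0.32 and 0.63 ± 0.21 and were not called.

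The gap between the lines was widest at 8 h for the list as a whole. Its median log2 difference was 0.41 at 0 h, 1.26 at 8 h and 0.66 at 24 h, each from 1 array against 1, while the medians over all genes tested were between -0.02 and 0.02. The number of the 34 members above 0 was 26, 31 and 29. The plot of the difference at each time point shows that the 8 h point is the farthest to the right for IFI44L, OAS2, IFI27, RIGI and IFI44, and that the 24 h point is for IRF7, GBP2, DDX60 and HERC5.

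**Figure D2:**
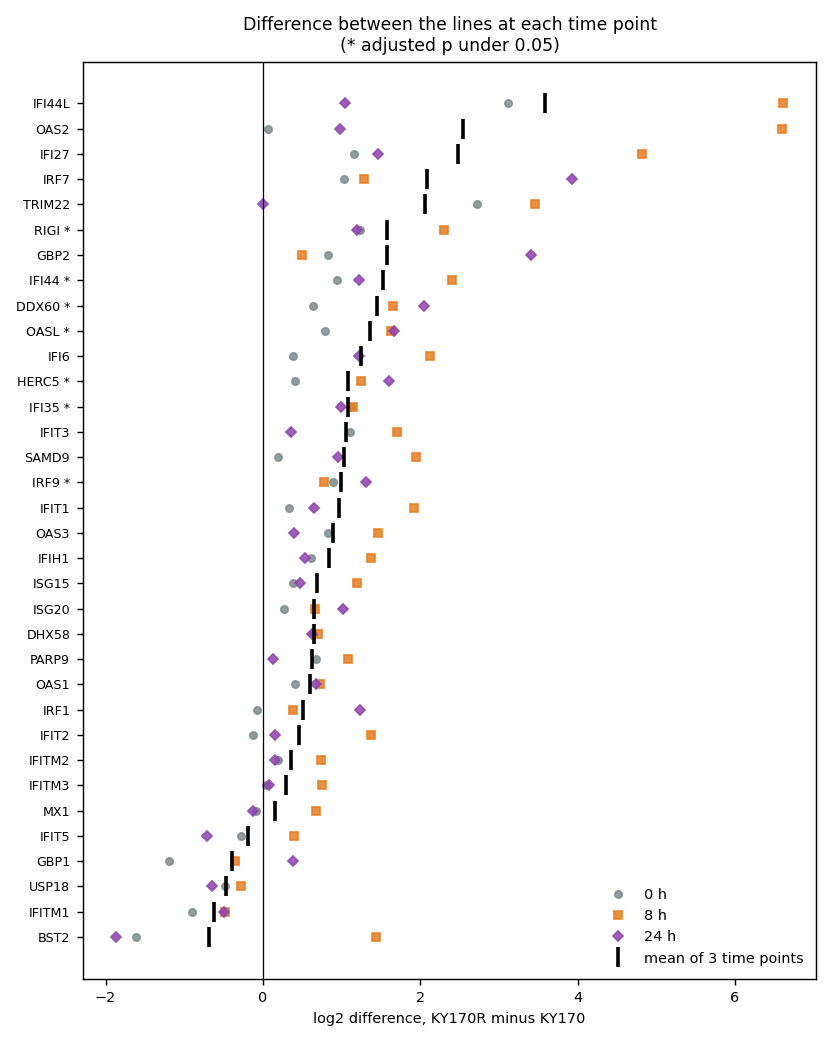
Log2 difference, KY170R minus KY170, of the 34 tested interferon-stimulated genes at 0, 8 and 24 h (symbols, 1 array against 1) and its mean (bar), ordered by the mean, with an asterisk on the 7 genes at an adjusted p under 0.05. Most symbols lie to the right of 0, and the median is 0.41, 1.26 and 0.66 at the 3 time points.

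Over the time course, averaged over both lines, the list moved down at 8 h, with a median log2 change of -0.60 against -0.02 over all genes tested. Of the 34 members, 10 fell at 8 h (29.4%), against 18.7% of all genes tested, and 1 rose, GBP1 (2.94%), against 18.6%. The steepest fall was in OASL, whose intensities are given above, by 2.53 ± 0.28 on the log2 scale (SE, 2 lines; limma, adjusted p = 2.23e-04). MX1 fell by 2.20 ± 0.42 (adjusted p = 0.0028), IRF1 by 2.11 ± 0.30 (adjusted p = 6.19e-04) and DHX58 by 1.59 ± 0.37 (adjusted p = 0.00884), all by limma. IFITM1, OAS1, ISG20, IFI35, ISG15 and IFITM3 made up the rest of the 10. OAS2 and GBP2 had changes as large, at -1.97 ± 1.75 and -1.73 ± 0.71, but were not called (limma, adjusted p = 0.513 and 0.137). GBP1 rose by 1.45 ± 0.34 (limma, adjusted p = 0.00834), a call that was lost when all of its probes were averaged.

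By 24 h members had moved in both directions, as had all genes tested. Of the 34, 12 were higher than at 0 h (35.3%), against 23.7% of all genes, and 7 were lower (20.6%), close to the 22.6% of all genes. The genes that rose included 3 of the 4 RNA sensors (RIGI, IFIH1 and DDX60), 3 of the 4 IFIT genes (IFIT1, IFIT2 and IFIT3), HERC5, IFI44, PARP9, SAMD9, GBP1 and TRIM22. Dimmer probes of IFIT1 and GBP1 were not called at 24 h (limma, adjusted p = 0.406 and 0.0992), while the dimmer IFIT3 probes were. A dimmer PARP9 probe, under the limit on most arrays, was not called. DDX60 rose by 2.61 ± 0.35 on the log2 scale (SE; limma, adjusted p = 3.93e-04), IFI44 by 2.11 ± 0.35 (adjusted p = 0.00105) and IFIH1 by 1.91 ± 0.38 (adjusted p = 0.00312). TRIM22 was at or under the background limit on both 0 h arrays and read 39.2 in KY170R and 39.0 in KY170 at 24 h, at least 2.84-fold higher. Its call (limma, adjusted p = 0.00954) belongs to a fitted log2 change of 3.93 ± 0.98. That size rests on 0 h values under the limit, the one in KY170 raised to the floor. IFI44L also had a large change, 3.44 ± 1.18, that was not called (limma, adjusted p = 0.0621). Its dimmer probe went the other way, by -0.77 ± 0.64, and was not called (limma, adjusted p = 0.389).

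The 7 that fell at 24 h were all 3 IFITM genes, ISG15, ISG20, IFI35 and IRF7. IFI35 fell by 1.63 ± 0.23 on the log2 scale (SE; limma, adjusted p = 4.63e-04), ISG20 by 1.42 ± 0.27 (adjusted p = 0.00254), IFITM1 by 1.37 ± 0.22 (adjusted p = 9.99e-04) and ISG15 by 1.18 ± 0.22 (adjusted p = 0.00193). IRF7 fell by 3.37 ± 0.83 (limma, adjusted p = 0.00877), a size that rests on a value at the floor in KY170. None of the 34 was called for a further fall between 8 and 24 h, against 4.11% of all genes, while 12 were higher at 24 h than at 8 h (35.3%), against 5.26%, and 18 had an unadjusted p under 0.05 in either direction, against 5646 of all probes (23.1%). OASL, OAS1 and IRF1 were called both for a fall at 8 h and for the later rise (limma, adjusted p = 0.00609, 0.0309 and 0.0185 for 24 h against 8 h). For OAS1 this held for its brightest probe only. Its other probes above the limit on every array fell at 8 h but missed the later rise (limma, adjusted p = 0.0962 and 0.094). The first of these was called lower at 24 h than at 0 h (log2 change -1.08, limma adjusted p = 0.00599). These time comparisons share arrays, the 0 h arrays in the first pair and the 8 h arrays in the last, and are not independent of each other. No member was called at 8 or 24 h in either direction under a single prior variance for all probes.

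The 8 h changes had different medians in each line. In KY170R, 19 of the 34 members were higher at 8 h than at 0 h and 15 lower, with a median log2 change of 0.17, whereas in KY170 6 were higher and 28 lower, with a median of -1.34. The medians over all genes tested were -0.03 in KY170R and -0.04 in KY170. At 24 h the median change of the members was 0.08 in KY170R and -0.51 in KY170. In the plot of changes after 0 h, IFIT1, IFIT2, IFI6, SAMD9 and IFI27 at 8 h lie to the right of 0 in KY170R and to the left of it in KY170. The line difference in the 8 h change alone could not be tested, since each line had 1 array at that time. The test instead set the 8 and 24 h arrays of each line, as 1 later group, against its 0 h array. In this limma interaction of line with the later group no member passed (0 of 34, smallest adjusted p = 0.999), against 0.0% of all genes. By its brightest probe no member reached an unadjusted p under 0.05 in this test, and 601 of all probes (2.46%) did. Dimmer probes of IFI6, OAS2 and PARP9 did reach it (limma, unadjusted p = 0.0117, 0.0182 and 0.00622). Those of OAS2 and PARP9 were under the background limit on most arrays. The comparison uses 1 array per line at 0 h, and the spread between 8 and 24 h counts as error in it.

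**Figure D3:**
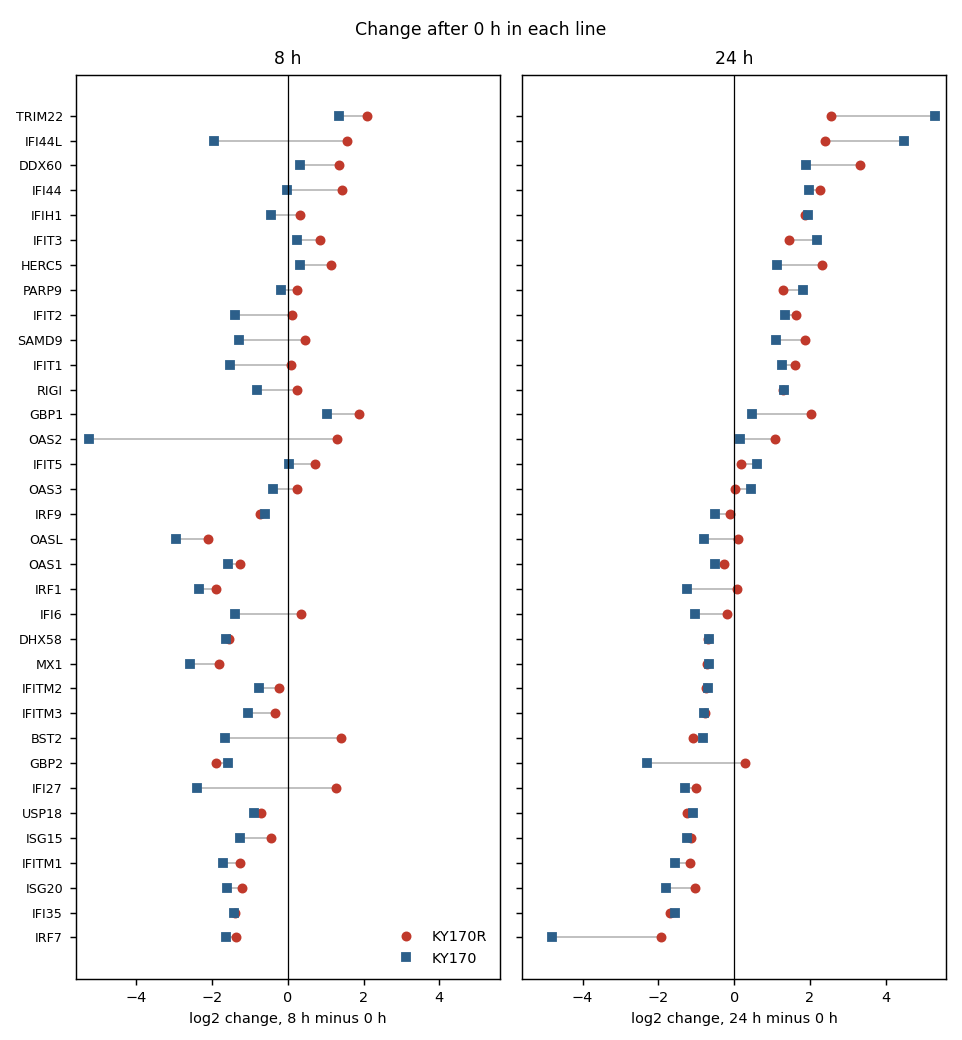
Log2 change of the 34 tested interferon-stimulated genes at 8 h (left) and 24 h (right) after 0 h, in KY170R (circles) and KY170 (squares), 1 array each, ordered by the mean change at 24 h. At 8 h most squares lie left of 0 (28 of 34) and the circles are spread on both sides, while the medians at 24 h are 0.08 in KY170R and -0.51 in KY170.

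The members that rose at 24 h were longer genes than those that fell. The median span in the genome was 19.8 kb for the 12 that rose and 1.58 kb for the 7 that fell, which include the compact IFITM genes and ISG15. The same direction was seen over all genes tested, where those called higher at 24 h had a median span of 50.8 kb and those called lower 11.8 kb. Across genes, which are not independent replicates and share the same arrays, Spearman's rho between span and the 24 h change was 0.53 over the 34 members and 0.37 over 12472 genes. For the difference between the lines rho was 0.32 over the members and 0.00 over all genes. Whether span had a part in the 24 h changes of these genes was not tested.

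**Figure D4:**
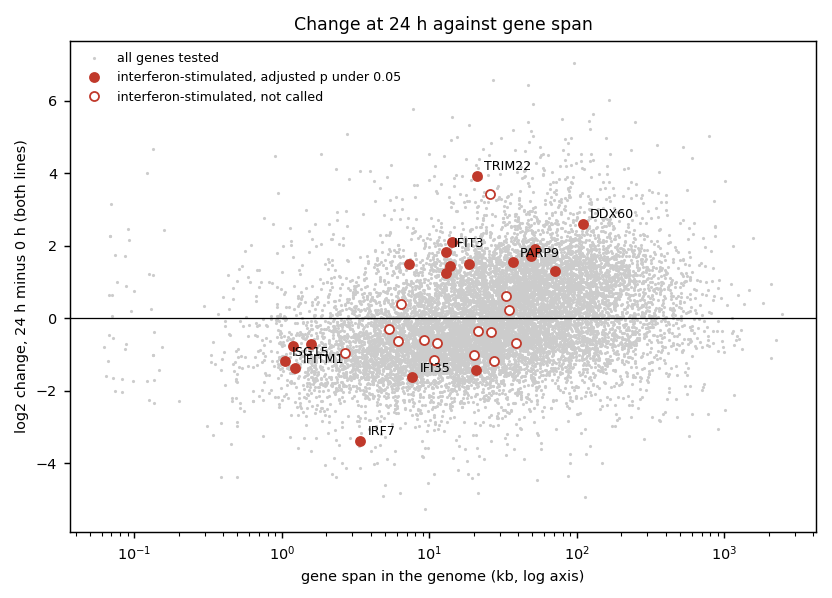
Log2 change at 24 h (mean of both lines) against gene span (kb, log axis) for all genes tested (grey) and the 34 interferon-stimulated genes (red, filled where the adjusted p was under 0.05). Filled points above 0 have a median span of 19.8 kb and those below 0 of 1.58 kb, and the grey points slope the same way.

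The wider interferon pathway was followed through 61 further genes, of which 59 had a probe and 48 were tested. Between the lines, 2 were called higher in KY170R (4.17%, against 1.48% of all genes), AIM2 and CXCL10, none was called lower, and 46 were not called. AIM2, a sensor of cytosolic DNA that forms an inflammasome, read 487, 345 and 971 in KY170R against 153, 101 and 366 in KY170. The log2 difference was 1.61 ± 0.21 (SE; 3.06-fold; limma, adjusted p = 0.00364). CXCL10, a chemokine that draws T cells and is itself an interferon target, read 139, 59.9 and 241 in KY170R against 61.2, 19.0 and 30.2 in KY170, a log2 difference of 1.94 ± 0.38 (3.85-fold; limma, adjusted p = 0.0277). Both were higher in KY170R at each of the 3 time points.

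The interferons themselves were not detectable above the limit. The probes of all 9 ligands (IFNB1, IFNA1, IFNA2, IFNE, IFNK, IFNL1, IFNL2, IFNL3 and IFNG) were at or under the background limit on all 6 arrays, and the highest reading was that of IFNE, 11.5 in KY170R at 0 h. The 6 receptor genes, the 4 measured kinases and STATs and the 5 inhibitors were all tested and none differed between the lines past the threshold, with median log2 differences of 0.43, 0.07 and 0.21. At 8 h, 9 of the 48 pathway genes rose (18.8%), against 18.6% of all genes, and 13 fell (27.1%), against 18.7% (limma, adjusted p under 0.05). At 24 h, 15 rose (31.2%), against 23.7%, and 4 fell (8.33%), against 22.6%.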

How the data were processed

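Total RNA of KY170R and KY170 cells at 0, 8 and 24 h was measured on Illumina Human-6 V3 arrays, 6 arrays in all. The authors processed the arrays in Illumina BeadStudio, and the deposited intensity values are on a linear scale, background-subtracted and normalized between arrays; the normalization and any version are not given in the sources used here. No detection p-values were used. The values gave medians of 6.458 to 6.470 and means of 432.5 to 434.6 per array, and the number of arrays limits the precision.

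Of 48803 probes, the platform annotation gave 1 symbol to 27578, several to 13 and none to 21212; 27541 had an Entrez identifier in the RefSeq table (GRCh38.p14), which was used for names and gene span. Values were raised to a floor of 1, turned into log2, and the upper 50% of probes by mean were tested (24401 probes) in limma 3.58.1 (R 4.3.3; lmFit and eBayes with a trended, robust prior; two-sided) with time point and line as factors, 2 residual and 8.66 prior degrees of freedom, and Benjamini-Hochberg adjustment over all probes. In the line comparison 444 probes were called, 244 higher in KY170R and 200 lower. The interaction was fitted with line and late (8 and 24 h) against 0 h. The members, the pathway and marker lists, the tests and the trended prior were chosen with earlier results of these data known.

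Values on all arrays were given for members called between the lines, the 8 largest and 5 lowest line differences, the OAS, IFIT, IFITM and MX families, and the 5 largest changes in each direction at 8 and 24 h; of the pathway list, for members called between the lines. Other members were given more briefly. The fit was also run on simulated data, and no result given here draws on that run. Alternatives were other floors, an offset of 50, quantile normalization, other filters, one prior variance, the methods' t-test, each time point left out and the mean of a gene's probes.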

Additional observations from a re-analysis of the deposited data

How the results depend on the processing

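The median log2 difference between the lines, 0.93, was 0.597 to 0.994 under every alternative run. The 7 genes called higher in KY170R stayed above 0 in all 12, which adds little support. Each was higher in KY170R at every time point, so leaving a time point out could not turn its sign. Another filter, prior or test leaves its log2 difference as it was. The calls were less stable. Probes called between the lines numbered 444, against 81 with the floor at the background limit, 47 with the floor at 24.5 (the size of the most negative value, an alternative chosen after seeing the data), 732 with an offset of 50, 0 with no filter, 1 with one prior variance, 5 by the methods' t-test, 257 without the 8 h arrays and 1284 without the 24 h arrays. Members called higher were 7, against 0 with either floor, with no filter, with one prior variance, by the methods' t-test and without the 8 h arrays, 11 with the offset, and 18 without the 24 h arrays, where 1 was called lower. Where none was called, 2 members (the methods' t-test; 3.1% of all probes) to 24 members (floor at the background limit; 12.5% of all probes) had an unadjusted p under 0.05. The 7 called genes were all kept under the offset, quantile normalization, the upper 30% of probes, the mean of probes and without the 24 h arrays, and 6 of 7 without the 0 h arrays. The deposited arrays already had nearly the same medians, means and shares of negative values. Quantile normalization could therefore change little, and the calls kept under it add no support.

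At 8 h, 1 gene rose, against 0 with no filter, with one prior variance and with the mean of probes, and 10 fell, against 1 with no filter and 0 with one prior variance. At 24 h, 12 rose, against 0 with no filter and with one prior variance, and 7 fell, against 2 with no filter and 0 with one prior variance. For the line difference in the change after 0 h, 0 became 1 with no filter. The log2 difference of GBP1, -0.39, was 0.0157 without the 0 h arrays, and that of IFIT5, -0.20, was 0.0619 without the 24 h arrays. Without a filter many probes at the floor on every array enter the fit. The cause of the other changes was not tested. Leaving out a time point leaves 1 residual degree of freedom, so calls kept or gained in those settings add little support. The labels give no replicate numbers and each group has 1 array. The lines were therefore paired only by time point, which served as the block. Below the background limit of 13.7, intensities cannot be told from noise.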
